A study of Mus musculus with 2 samples.

Results

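The common gamma chain cytokine receptor genes taken here are 10 genes that let a T cell sense IL-2, IL-4, IL-7, IL-15 and IL-21. They are 7 receptor chains (Il7r, Il2ra, Il2rb, Il2rg, Il4ra, Il21r and Il15ra), 2 kinases (Jak1 and Jak3) and 1 transcription factor (Stat5b), out of 21938 protein-coding genes of the GENCODE M21 annotation. They were taken by name, with earlier results of these data known, and the rule uses no measured value. For each gene, the intervals bound by GABPα were sought within 1000 bp of any transcript start and within 50 kb of one, and the nearest interval was taken where there was none. The 10 genes had 55 transcripts with 52 distinct starts.

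The common gamma chain, the product of Il2rg, pairs with another chain, which for both IL-2 and IL-15 is the product of Il2rb. Binding of the cytokine brings together Jak1, held by the other chain, and Jak3, held by the gamma chain, and these kinases activate STAT proteins, chiefly Stat5 for IL-2, IL-7 and IL-15. IL-7 keeps naive T cells alive and IL-2 drives the division of activated ones. GABPα is the DNA-binding subunit of the Ets-family factor GABP, which recognises sites with a GGAA core, and Il7r is a gene for which regulation by GABPα has been proposed.

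The cells were CD4+ T cells that had been taken from wild-type C57BL/6 mice with MACS magnetic beads, and DNA bound by GABPα was mapped in them by ChIP-seq. There was 1 library made with a GABPα antibody (sc-22810X) and 1 library of input DNA made without antibody, which served as the control for peak calling, and the sources used here do not give the age of the mice. The data are a list of 6782 bound intervals (peaks) on GRCm38 (mm10), with widths from 104 to 5151 bp (median 157 bp). The list holds only intervals past the cutoff of the peak caller and carries no score, height or count, so the depth of the library is unknown, a gene without a peak is a gene without a called interval, and a difference in binding strength cannot be read from it. With 1 library there are no replicates and no p-value is given, and the Wilson 95% intervals beside shares cover counting error only. The list holds no expression. Of the CD4+ T-cell genes Cd3e, Cd3d, Cd4 and Lck, none had a peak within 1000 bp of a start, beside 17.7% of all protein-coding genes. Their nearest peaks lay 36573, 15972, 41095 and 26889 bp away, and Cd3e and Cd3d have the same one.

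None of the 10 genes had a GABPα peak at a promoter. Within 1000 bp of a transcript start, 0 of 10 genes had a peak (Wilson 95% interval 0 to 27.8%), against 3880 of all 21938 protein-coding genes, or 17.7% (17.2 to 18.2%). The share over all genes lies inside the interval of the 10 genes, so at this number of genes the count is not told apart from the background. Within 50 kb of a start, 3 of 10 genes had a peak, Il4ra, Il21r and Jak3 (30%, 10.8 to 60.3%), against 45.5% of all protein-coding genes. A peak lay inside the gene body of 1 of 10, Il21r, against 19% of all protein-coding genes.

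**Figure D1:**
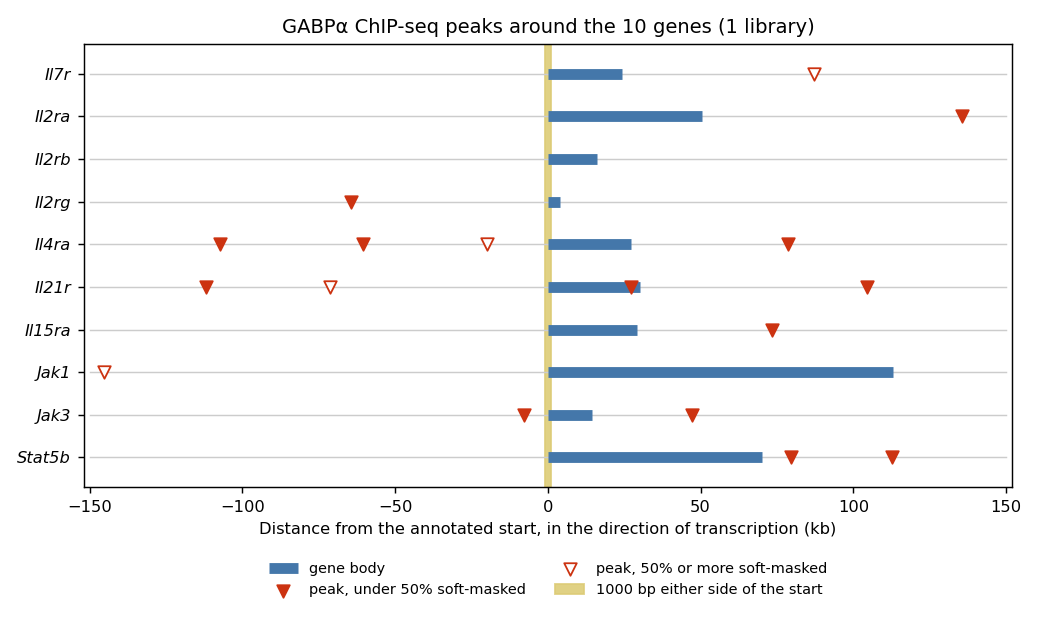
Position of every GABPα peak within 150 kb of the annotated start of each gene, with distance in kb along the direction of transcription on the x axis and 1 row per gene. Triangles are peak midpoints, open for peaks soft-masked over 50% or more of their length (lower-case repeat sequence of the reference), blue bars are gene bodies, and the yellow band, 1000 bp either side of the start, holds no peak in any row; the row of Il2rb is empty and the only peak in a gene body is that of Il21r.

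The distance from a gene to its nearest peak ran from 7875 bp for Jak3 to 381762 bp for Il2rb, with a median of 59.7 kb against 62.5 kb over all protein-coding genes. The 10 genes were spread along the distribution of all genes from 7.88 kb outward and did not gather at either end: 22.0% of protein-coding genes had a peak as near as Jak3 or nearer, and 90.4% as near as Il2rb or nearer. Within 1 Mb of the annotated start the 10 genes had 2 to 28 peaks, with a median of 8 against 7 over all protein-coding genes. The fewest were around Jak1 and the most around Jak3, and neighbouring genes of the set (Il4ra with Il21r, Il2ra with Il15ra) share most of their surroundings and are not separate observations.

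**Figure D2:**
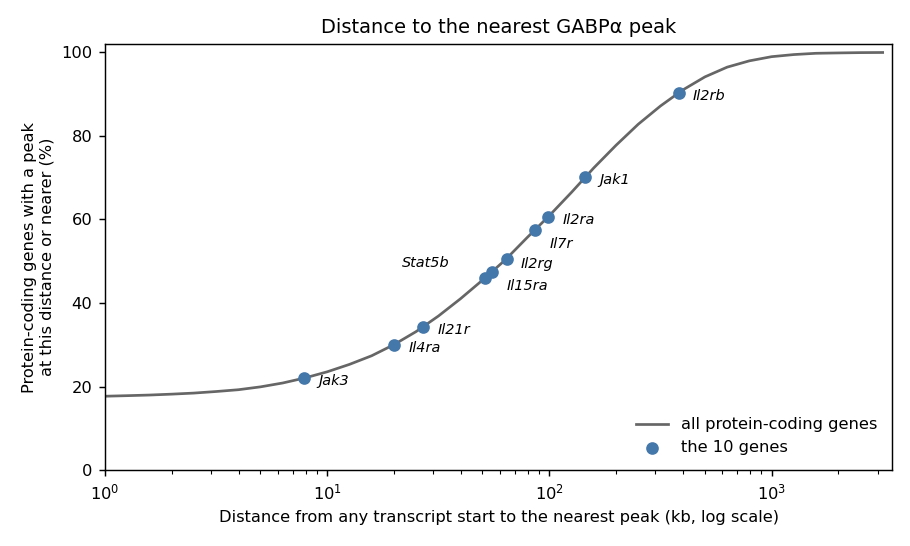
Distance in kb (log scale, x axis) against the percentage of protein-coding genes with a peak at that distance or nearer (y axis), as a grey curve for all 21938 genes, with the 10 genes marked on it. The curve is drawn from 1 kb, where it stands at 17.7%, the share of genes with a peak within that distance. Every gene of the set lies beyond the flat part of the curve on the left, from Jak3 at 7.88 kb to Il2rb at 382 kb.

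Il2rg encodes the common gamma chain itself (ENSMUSG00000031304.18, chrX:101264378-101268255, minus strand, 4 transcripts with 4 starts). Its nearest peak, chrX:101332457-101332754, lay 64202 bp upstream, overlapped no annotated gene, was 298 bp wide (percentile 91.3 of all peaks) and held 7 GGAA cores but no CGGAAG. The promoter carried the GABP sequence CCGGAAG, with the nearest base at position −11 from the annotated start and on the strand of the gene. The 120 bases before that start (GRCm38, chrX:101268256-101268375, minus strand, 5′ to 3′) are shown because they hold this copy without a peak, with CCGGAAG and one more GGAA core, read on the opposite strand as TTCC, in capitals.
Il2rg promoter: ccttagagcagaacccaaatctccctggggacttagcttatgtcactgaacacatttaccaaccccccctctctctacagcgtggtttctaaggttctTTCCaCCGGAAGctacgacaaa

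Il7r encodes the alpha chain of the IL-7 receptor (ENSMUSG00000003882.5, chr15:9505788-9530176, minus strand, 4 transcripts with 4 starts). No peak lay within 50 kb, and 57.5% of protein-coding genes had a peak as near or nearer. The nearest interval, chr15:9443125-9443228, was 86538 bp downstream of the closest start in an intron of Capsl. It was 104 bp wide, the least width in the list, 100% soft-masked and without GGAA. The nearest peak under 50% soft-masked was 389177 bp away, within 1000 bp of starts of Lmbrd2 and of Skp2, a subunit of an SCF ubiquitin ligase. The promoter window, 250 bp before to 50 bp after the annotated start, held 2 GGAA cores and no CGGAAG. The annotated start at 9530176 belongs to a processed transcript, and the outermost protein-coding start is 9529835. The 150 bases before the latter (GRCm38, chr15:9529836-9529985, minus strand), inside an intron of the processed transcript, are shown for their GGAA cores, both read on the opposite strand as TTCC in capitals.
Il7r promoter: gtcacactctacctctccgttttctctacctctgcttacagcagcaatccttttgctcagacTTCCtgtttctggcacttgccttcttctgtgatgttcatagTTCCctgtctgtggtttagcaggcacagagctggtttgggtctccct

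Il2ra and Il15ra encode the alpha chains that raise the affinity of the IL-2 and IL-15 receptors, and they lie next to each other on chromosome 2. Il2ra (ENSMUSG00000026770.5, chr2:11642807-11693193, plus strand, 3 starts) and Il15ra (ENSMUSG00000023206.16, chr2:11705290-11734317, plus strand, 17 starts) had the same nearest peak, chr2:11778407-11778605, 98699 bp from the former and 55243 bp from the latter. This peak, 199 bp wide with 2 CGGAAG and 5 GGAA copies, covers a start of Ankrd16 and lies 825 bp from one of Fbh1, a DNA helicase. The pair differed at the promoter, where the window of Il2ra held 4 GGAA cores and no CGGAAG, while that of Il15ra held 11 GGAA cores and 1 CCGGAAG with its nearest base at −95. The 120 bases before the annotated start of Il15ra (GRCm38, chr2:11705170-11705289, plus strand) follow, with CCGGAAG and the other GGAA cores in capitals, as the other promoter window of the set with CCGGAAG.
Il15ra promoter: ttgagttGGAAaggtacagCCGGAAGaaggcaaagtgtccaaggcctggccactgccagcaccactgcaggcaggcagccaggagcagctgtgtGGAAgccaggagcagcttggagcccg

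Il2rb encodes the chain shared by the receptors for IL-2 and IL-15 (ENSMUSG00000068227.9, chr15:78479256-78495271, minus strand, 2 starts), and it was the farthest of the set from any peak. Its nearest peak, chr15:78877033-78877341, lay 381762 bp upstream over a start of Gga1, a Golgi adaptor of clathrin-coated vesicles. That peak was 309 bp wide (percentile 92.6) and was the only nearest peak of the set with CCGGAAG, which it held 2 times. Over all peaks of the list, 31.7% held CCGGAAG. The promoter window of Il2rb held 1 GGAA core and no CGGAAG.

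Il4ra, the chain that binds IL-4 and serves the receptor for IL-13, and Il21r, the chain that binds IL-21, are neighbours on chromosome 7 and each had 1 peak within 50 kb. For Il4ra (ENSMUSG00000030748.9, chr7:125552120-125579474, plus strand, 4 starts) it lay 19924 bp upstream at chr7:125532092-125532196, outside any gene. For Il21r (ENSMUSG00000030745.9, chr7:125603429-125633570, plus strand, 3 starts) it lay 26946 bp downstream of the closest start at chr7:125630483-125630652, in an intron, 649 bp past the end of one exon and 53 bp before the start of the next. These intervals differed in content. That of Il4ra was 105 bp wide, 100% soft-masked and held no GGAA, which is missing from 13.8% of all peaks, whereas that of Il21r was 170 bp wide, held no soft-masked base and had 4 GGAA cores, 1 of them as CGGAAG. Both are printed whole (GRCm38, plus strand), with the GGAA cores and the CGGAAG, read on the opposite strand as CTTCCG, in capitals.
Il21r intron peak: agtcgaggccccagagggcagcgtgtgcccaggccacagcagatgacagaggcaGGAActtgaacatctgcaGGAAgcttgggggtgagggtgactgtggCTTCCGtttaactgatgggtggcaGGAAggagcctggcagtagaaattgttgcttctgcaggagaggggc
Il4ra upstream peak: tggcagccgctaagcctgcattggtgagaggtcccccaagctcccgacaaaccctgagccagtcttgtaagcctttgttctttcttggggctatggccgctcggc

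The nearest peak of Il4ra under 50% soft-masked lay 60458 bp away at a start of Nsmce1, a subunit of the SMC5/6 complex, was 312 bp wide and held 1 CCGGAAG. The promoter window of Il4ra held 3 GGAA cores, and that of Il21r held none, in contrast to the other 9 genes of the set and to 96.1% of all promoter windows. Il21r is also the gene with GGAA cores in a peak of its intron, but 86.2% of all peaks held GGAA.

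Jak3 encodes the kinase bound to the gamma chain (ENSMUSG00000031805.17, chr8:71676296-71690575, plus strand, 4 starts), and it was the nearest of the set to a peak and the only one with 2 peaks within 50 kb. The nearer, chr8:71668249-71668421, lay 7875 bp upstream in an intron of Unc13a, a neuronal gene for synaptic vesicle priming, 167 bp from the start of a transcript with a retained intron. The farther, chr8:71723235-71723443, lay 44900 bp away over a protein-coding start of Fcho1, which acts in clathrin-mediated endocytosis. Each held 1 CGGAAG and no CCGGAAG, and in each the copy is followed by T, whereas the CGGAAG in the peak of Il21r is followed by C. The sites are given with 10 bases on either side and CGGAAG in capitals (GRCm38, chr8:71668344-71668369, plus strand, and chr8:71723292-71723317, minus strand).
Jak3 upstream peak: ggtcagcgggCGGAAGtgcctggtct
Fcho1 peak: ttagtgctggCGGAAGtgtcaggggt

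Jak1 encodes the kinase held by the chains that pair with the gamma chain (ENSMUSG00000028530.14, chr4:101152367-101265282, minus strand, 8 starts). Its nearest interval, chr4:101410380-101410551, lay 145098 bp upstream between genes, was 172 bp wide and 100% soft-masked, and held no GGAA. The nearest peak under 50% soft-masked was 382422 bp away at a start of Leprot. Around its starts Jak1 had 2 copies of CGGAAG, neither preceded by C, at −141 and 233 from the annotated start. They are shown in capitals with 10 bases on either side (GRCm38, chr4:101265413-101265438 and chr4:101265034-101265059, minus strand).
Jak1 at −141: acttggtaagCGGAAGcgagcggaga
Jak1 at 233: ccggcgcacaCGGAAGtggtgagtgt

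Stat5b, a transcription factor activated by these receptors (ENSMUSG00000020919.11, chr11:100780731-100850724, minus strand, 3 starts), had its nearest peak 51484 bp downstream of the closest start and 9687 bp past the end of the gene. That peak, chr11:100770925-100771044, was 120 bp wide with 3 GGAA cores and covered a start of Ghdc. The promoter window of Stat5b had the highest GC content of the set, 74.7% with 37 CpG, but held 2 GGAA cores and no CGGAAG. A copy of CCGGAAG lay farther out at −663, on the opposite strand (GRCm38, chr11:100851377-100851403, plus strand, motif in capitals).
Stat5b at −663: cccggccagcCCGGAAGcaaggcacat

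The 10 genes had 9 distinct nearest peaks, since Il2ra and Il15ra share one. In 3 of 10 genes, Il7r, Il4ra and Jak1, the nearest peak was at least 50% soft-masked, against 27.9% of all protein-coding genes. All 3 of these intervals were fully soft-masked and held no GGAA, whereas the nearest peaks of the other 7 genes held 2 to 7 GGAA cores each. Over the whole list, 39.8% of peaks were at least 50% soft-masked and 13.8% held no GGAA. The 36-base sequences of the intervals, the length of the reads, were counted in the genome. None was unique in the nearest peaks of Il7r, Il4ra and Jak1 (0 of 69, 0 of 70 and 0 of 137), and all were unique in those of the other 7. How reads with several matches were placed is not given in the sources used here, and the part of this in the 3 intervals was not tested. With peaks under 50% soft-masked alone, the median distance was 62.3 kb for the 10 genes and 89.5 kb for all protein-coding genes. Around the annotated starts, 1000 bp either side, 93.2% (Il21r) to 100% (Il2rg, Il4ra and Stat5b) of 36-base sequences were unique, and the bases around the 3 CCGGAAG copies, 100 bp either side, were unique throughout (172 of 172 for each).

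The motifs were counted as exact letters on both strands, CCGGAAG, its shorter form CGGAAG and the core GGAA, each contained in the one before. CCGGAAG stood in the promoter window of 2 of 10 genes, Il2rg and Il15ra, against 10.8% of all protein-coding genes. CGGAAG stood in 3 of 10, with Jak1 added, against 19.9%, and GGAA in 9 of 10 against 96.1%. Over all transcript starts the 10 genes had 7 CGGAAG copies within 1000 bp in 5 genes (Il2rb, Il2rg, Il15ra, Jak1 and Stat5b), 3 of them as CCGGAAG. The other 5 genes, Il7r, Il2ra, Il4ra, Il21r and Jak3, had none. The share over all protein-coding genes was not counted for this wider search, so these counts only describe the 10 genes. No copy lay within 50 kb of a peak: the 3 CCGGAAG were 64185 bp (Il2rg), 73212 bp (Il15ra) and 80343 bp (Stat5b) from the nearest one.

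A promoter with CCGGAAG and no peak was the less common outcome over all genes. Of 2364 windows with CCGGAAG, 1619 belonged to a gene with a peak within 1000 bp (68.5%, 66.6 to 70.3%) and 745 did not, and Il2rg and Il15ra are among the latter. Without CCGGAAG the share was 11.6%, with CGGAAG but no CCGGAAG, the class of Jak1, it was 34.1%, and with GGAA but no CGGAAG, the class of Il7r, Il2ra, Il2rb, Il4ra, Jak3 and Stat5b, it was 9.03%. The last class holds 6 of the 10 genes, and it is also the largest over all protein-coding genes, with 16711 of 21938.

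The GC content of the promoter window, which moves with the share of genes that have a peak, was 42.0 to 74.7% in the 10 genes with a median of 52.8%, against a median of 55% over all protein-coding genes. Genes were set in 5 groups of like size by this content, and the share with a peak ran from 5.17% in the first group through 12.9%, 20.6% and 26.4% to 23.4% in the fifth. The 10 genes were spread over the groups as 1, 2, 5, 1 and 1. In the second group, that of Il2rg, 162 of 290 windows with CCGGAAG had a peak (55.9%, 50.1 to 61.5%), and in the third, that of Il15ra, 393 of 563 had one (69.8%, 65.9 to 73.5%). Most windows with the sequence had a peak in both groups, and those of these 2 genes did not. With 2 genes this is not told apart from such shares. In the 3 lowest groups, 217 of 447 windows with 1 copy followed by A, C or G, as here, had a peak (48.5%).

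**Figure D3:**
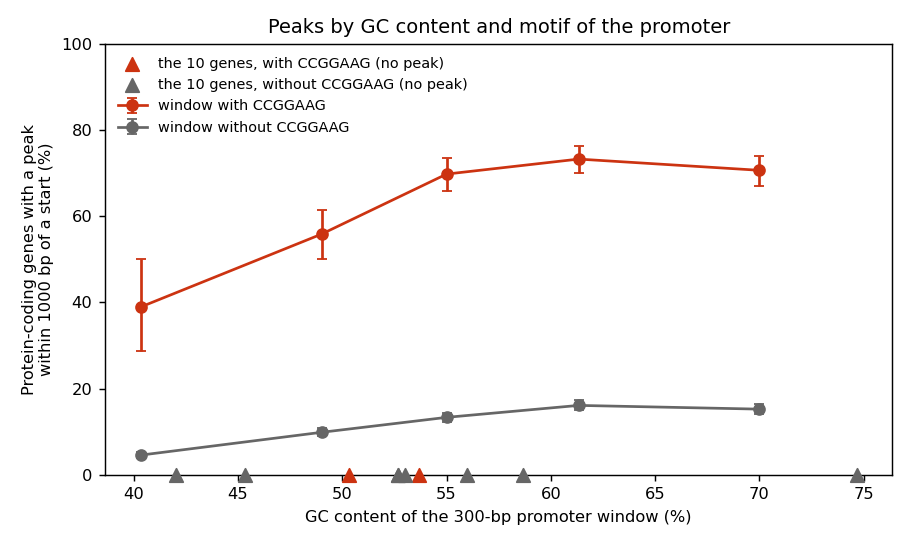
Percentage of protein-coding genes with a GABPα peak within 1000 bp of a start (y axis) against the median GC content of their promoter windows in 5 groups (x axis), for windows with CCGGAAG (red) and without it (grey), with Wilson 95% intervals as bars. Triangles on the axis give the GC content of the 10 genes, none of which has a peak, and the red triangles, Il2rg at 50.3% and Il15ra at 53.7%, stand below red points of 55.9% and 69.8%.

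Among 30 other genes of the pathway, 6 had a peak within 1000 bp of a start (20%, 9.51 to 37.3%), beside 17.7% of all protein-coding genes. None of the 6 ligands did (Il2, Il4, Il7, Il9, Il15 and Il21). Of 3 related receptors, Crlf2 did, whose product pairs with the IL-7 receptor alpha chain to bind TSLP. Of 8 other Janus kinases and STATs, Tyk2, a kinase of interferon and IL-12 receptors, and Stat6, the factor activated by IL-4, did. Ptpn2, a phosphatase that acts on Jak1 and Jak3, was the only one of 7 inhibitors, and Shc1 and Grb2, adaptors that lead to the Ras pathway, were 2 of 6 adaptors.

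The peaks at these related genes varied in form. The peak of Crlf2, chr5:109556806-109557601, lay 333 bp from a coding start but 1392 bp from the annotated start, and counts through the former. It was 796 bp wide (percentile 99.7) with 18 GGAA cores. That of Shc1, chr3:89418545-89418896, was 352 bp wide with 3 CCGGAAG copies and also lies within 1000 bp of a start of Cks1b. At the other end, the peak over the start of Stat6, chr10:127642928-127643031, was 104 bp wide with 1 GGAA and no CGGAAG, and that of Tyk2, chr9:21131375-21131532, was 158 bp wide with 4 GGAA cores and no CGGAAG. Grb2 had 2 peaks, of 140 and 146 bp, and Ptpn2 had 2, of 160 and 216 bp.

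Of 17 other cytokine receptor genes, 1 had a peak within 1000 bp, Ifnar1, a chain of the type I interferon receptor (5.88%, 1.05 to 27.0%). Its peak, chr16:91484996-91485144, lay 94 bp from the annotated start and held 1 CCGGAAG. With the 3 related receptors added, 2 of 20 had one. None of 16 genes of the T-cell receptor complex and its signalling did (0 to 19.4%). Each of these intervals includes the 17.7% of all protein-coding genes. Within 50 kb, 9 of the 16 had a peak (33.2 to 76.9%), an interval that includes the 45.5% of all protein-coding genes, and their median distance was 44.2 kb against 62.5 kb. As a reference group, 48 of 78 mitochondrial ribosomal protein genes had a peak (61.5%, 50.4 to 71.6%). The study already names Mrpl16 and Mrps35 of this class among its putative direct targets, so the contrast with the 10 genes is not a test. The promoter windows of the 2 groups also differed. Median GC content was 57.7% against 52.8% in the 10 genes, and CCGGAAG stood in 34.6% of windows against 20%.

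**Figure D4:**
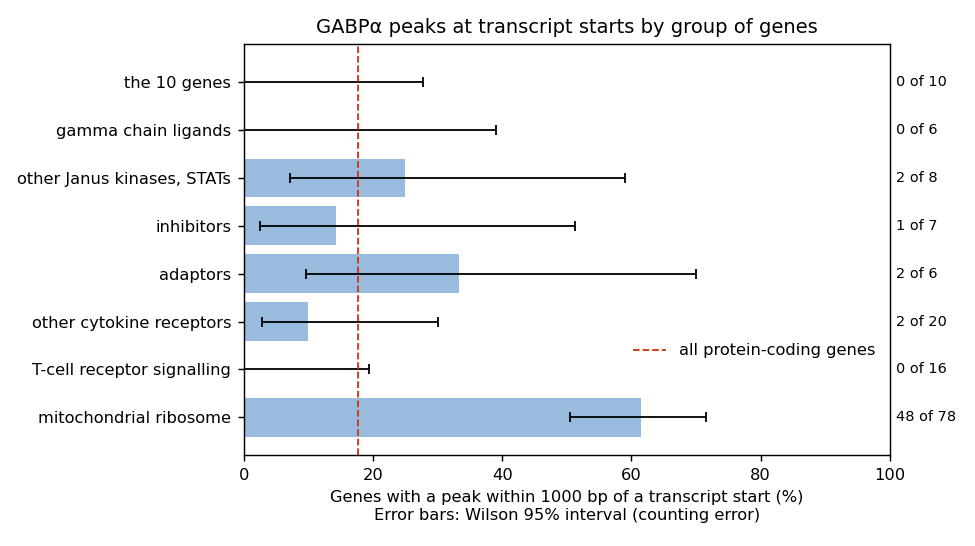
Percentage of genes with a GABPα peak within 1000 bp of a transcript start (x axis) by group of genes, with Wilson 95% intervals as bars and the count at the right. The groups of the 10 genes, the ligands and T-cell receptor signalling stand at 0, the interval of the 10 genes reaches 27.8% and crosses the dashed line at 17.7% for all protein-coding genes, and mitochondrial ribosomal protein genes stand at 61.5%. Other cytokine receptors here are the 17 together with the 3 related ones.

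The copies of CCGGAAG inside peaks at the related genes allow a look at the letters beside the motif. They are printed with 10 bases on either side and the motif in capitals (GRCm38, chr3:89418563-89418589, chr5:109557092-109557118 and chr16:91485058-91485084, all plus strand), to be read against the copies at Il2rg, Il15ra and Stat5b above.
Shc1: gttagtgaggCCGGAAGtgagtgtaat
Crlf2: gaggatgcacCCGGAAGtgacaccagc
Ifnar1: ggcagtctttCCGGAAGtgggggcgga

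All 5 CCGGAAG copies in the peaks of these 3 genes are followed by T, but 3 of them lie in the single peak of Shc1. Of the 3 copies around the starts of the 10 genes, 0 are: that of Il15ra is followed by A, and those of Il2rg and Stat5b by C. This difference was noticed after the sequences had been seen. Over all promoter windows with 1 copy of CCGGAAG, T followed in 766 of 1959. With 3 copies, a count of 0 is not told apart from such a share. The shorter CGGAAG does not divide in this way: the copy in a peak of Grb2 is followed by C, as is that of Il21r, while the Jak1 copy at 233, with no peak, is followed by T.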

How the data were processed

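The authors sequenced 36-bp single-end reads, and, per the study's methods and the submitters' processing notes, trimmed them with Trimmomatic (quality 20, at least 30 bases kept), aligned them to mm10 with Bowtie and called peaks with MACS2 against input at a q value cutoff of 0.01; the versions are not given in the sources used here. The deposited list gives intervals only, with an empty score column, so no count, signal or depth was available.

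Peaks were set on GENCODE M21 and GRCm38.p6 (chromosomes 1 to 19, X and Y), with starts taken as 0-based and printed 1-based. A gene counted when any base of a peak lay within the given distance of any transcript start. Soft-masked bases of the reference stood for repeats. Motifs were exact letters on both strands. Uniqueness compared every 36-base sequence of the 21 chromosomes on both strands. Intervals are Wilson 95% intervals (scipy 1.17.1). Sequence was read with samtools 1.23.1 and pysam 0.24.0, tables were handled in Python 3.11.15 with pandas 2.3.3 and numpy 2.4.6, and plots were drawn with matplotlib 3.10.9, and the scripts were tested on simulated data.

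Members and lists were chosen with earlier results of these data known. Genes named are the 10 members, genes with a start within 1000 bp of their nearest peaks or of peaks within 50 kb, and genes of the lists with a peak within 1000 bp. The T-cell markers and the ligands were named from their lists, whatever their peaks, and Capsl for an overlap. Pik3cd, Il17ra and genes at the nearest peaks under 50% soft-masked were named after their values were seen. Alternatives covered the window, transcripts, peaks, soft-masking limit and motif.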

Additional observations from a re-analysis of the deposited data

How the results depend on the processing

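The count of genes of the set with a peak within 1000 bp of a start stayed at 0 under all 8 alternatives (windows of 250, 500 and 2000 bp, protein-coding transcripts only, the annotated start only, wide peaks, peaks under 50% soft-masked, peak midpoints). The share over all protein-coding genes moved from 17.7% to 16.6% at 250 bp, 17.2% at 500 bp, 16.4% from the annotated start only and 14.0% with peaks at or above the median width. Genes of the set with a peak within 50 kb, 3 in the main count, numbered 8 at 100 kb and 5 from the gene body. They numbered 2 at 20 kb, 2 with wide peaks and 2 with peaks under 50% soft-masked. The last of these counts leaves out Il4ra. The share over all genes moved from 45.5% to 30.04% at 20 kb, 60.9% at 100 kb and 49.0% from the gene body. It was 34.0% with wide peaks and 39.7% with peaks under 50% soft-masked. With wide peaks alone, 1 gene in place of 3 had a mostly soft-masked nearest peak. In place of CCGGAAG in 2 promoter windows of the set, GGAA stood in 9 and CCGGAAGT, added after seeing the data, in 0. Over all protein-coding genes, 1030 of 21938 windows held CCGGAAGT. A count of 0 in so small a set is therefore not told apart from the background. The share of windows with CCGGAAG that had a peak moved from 68.5% to 52.7% for CGGAAG, 18.1% for GGAA, 54.7% for 500 bp either side, 64.3% for every protein-coding start and 82.2% for CCGGAAGT. Counts move with a wider or narrower window by construction, and the cause of the other moves was not tested. No paired analysis was possible because there is 1 library per group. The number of reads is unknown, so whether a weaker peak at these starts fell under the cutoff cannot be read from the list.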

Other observations

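The base after CCGGAAG was counted over all promoter windows with a single copy, after the sequences of the set had been seen. A peak lay within 1000 bp for 604 of 766 genes with T after the motif (78.9%, Wilson 95% interval 75.8 to 81.6%), 156 of 269 with A (58.0%, 52.0 to 63.7%), 336 of 581 with C (57.8%, 53.8 to 61.8%) and 161 of 337 with G (47.8%, 42.5 to 53.1%). Within the 3 lowest GC groups, which hold the windows of Il2rg and Il15ra, the shares were 72.2% with T (67.1 to 76.7%) and 48.5% with any other base (43.9 to 53.2%). The copies of Il2rg and Il15ra, followed by C and A, belong to the classes with the lower shares. Those shares were 57.8% and 58.0% over all GC groups, and 48.5% within the 3 lowest for any base but T. Windows with more than 1 copy had a peak in 357 of 405 genes (88.1%), against 64.4% with 1 copy, which is the number in Il2rg and Il15ra.

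Of the pathway, cytokine receptor and T-cell receptor lists, the genes with CCGGAAG in the window were Ifnar1, which had a peak, and Pik3cd and Il17ra. Pik3cd, a kinase subunit downstream of these receptors with 2 copies of CCGGAAG in its window, and Il17ra, a receptor chain for IL-17 with 1 copy, had no peak within 1000 bp. Their nearest peaks were 177923 and 98763 bp away. Among the mitochondrial ribosomal protein genes, 22 of 27 windows with CCGGAAG belonged to a gene with a peak.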
